A study of Rattus norvegicus with 9 samples.

Results

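The 10 genes described here (Ager, Aqp5, Hopx, Pdpn, Cav1, Rtkn2, Akap5, Clic5, Gprc5a and Cldn18) are used as markers of alveolar type I cells. They were taken by name, but earlier results of these data were known when they were chosen. All 10 were among the 17465 genes of the deposited table, and all 10 passed the filter on low counts, which left 12966 genes for testing. RNA was sequenced from 9 whole fetal lungs of Sprague-Dawley rats. There were 3 control lungs, 3 hypoplastic lungs with treatment given as none, and 3 hypoplastic lungs treated with AFSC-EVs, the extracellular vesicles that amniotic fluid stem cells release. By the title of the series, the hypoplasia followed oligohydramnios, in which too little fluid surrounds the fetus. The sources used here do not give the age of the fetuses, how much vesicle material was given or by which route, or whether lungs shared a dam or litter, so p-values measure only the spread between these lungs. Libraries are named by group and by the number in their title.

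Alveolar type I cells are the thin, flat cells that line most of the gas exchange surface and lie against the capillaries. In the fetus they arise with alveolar type II cells, which make surfactant, from the distal epithelium, and their flattening is known to depend on stretch from lung fluid and fetal breathing. Several of these genes are not restricted to that cell: Cav1 is also abundant in endothelium, Pdpn marks lymphatic endothelium and mesothelium, and Cldn18, Clic5 and Hopx have other sites of expression. In RNA from whole lung, fewer cells of a type and less RNA per cell cannot be told apart.

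Promoters are shown for Ager and Hopx, the genes nearest to the shared pattern described below, and for Cldn18, whose libraries did not overlap between groups. They come from RefSeq (assembly GRCr8), run 5′ to 3′ along the gene from 250 bases before the start to 50 after it, and had entries for 9 of the 10 genes (Gprc5a had none and Cav1 had a pair of starts). The Ager promoter is chr20:4155636-4155935 on the minus strand, the Hopx promoter chr14:31429163-31429462 on the plus strand and the Cldn18 promoter chr8:109144570-109144869 on the minus strand. Capitals mark a CAAGTG match, the core bound by NKX2 factors.
Ager: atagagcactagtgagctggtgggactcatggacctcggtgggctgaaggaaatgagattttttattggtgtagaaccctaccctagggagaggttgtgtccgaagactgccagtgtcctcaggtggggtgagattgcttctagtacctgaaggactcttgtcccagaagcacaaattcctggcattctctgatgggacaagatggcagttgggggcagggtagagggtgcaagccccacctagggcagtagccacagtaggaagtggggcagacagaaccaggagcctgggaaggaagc
Hopx: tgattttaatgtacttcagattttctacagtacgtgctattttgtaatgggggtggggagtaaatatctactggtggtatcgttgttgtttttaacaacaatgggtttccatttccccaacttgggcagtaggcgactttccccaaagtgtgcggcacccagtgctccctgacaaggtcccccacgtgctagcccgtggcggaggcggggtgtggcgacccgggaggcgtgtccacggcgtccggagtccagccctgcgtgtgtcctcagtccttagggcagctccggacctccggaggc
Cldn18: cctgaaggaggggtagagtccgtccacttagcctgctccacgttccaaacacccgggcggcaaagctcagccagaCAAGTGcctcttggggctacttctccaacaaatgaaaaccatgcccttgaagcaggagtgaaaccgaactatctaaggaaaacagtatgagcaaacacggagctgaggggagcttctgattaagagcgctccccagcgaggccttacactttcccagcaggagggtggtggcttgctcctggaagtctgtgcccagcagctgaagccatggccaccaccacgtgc
CAAGTG, searched on both strands (CACTTG on the other), was in 14.06% of 33469 RefSeq promoters of the same length and in 1 of the 10 promoters of these genes, starting 175 bases before the Cldn18 start. The core bound by TEAD factors, GGAATG, which reads as CATTCC on the opposite strand, was in 14.19% of all promoters and in 0 of these 10. With that single match no motifs overlapped here, and a match is a description of letters, not of a bound site.

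Library totals ran from 56922779 to 88243188 estimated counts, and the spread between lungs of a group was well above counting error. Levels are given as CPM, the count scaled to the TMM-adjusted library total. CPM takes no account of transcript length, so levels are compared between libraries and not between genes. Libraries differed in transcripts typical of blood, heart muscle, basal and squamous epithelium and neutrophils. Whether these came from within the lung or from tissue beside it was not tested. Control 2, which was high for most of the 10 genes, had the highest sum of red cell genes (6 of 7 in the table), at 10980 CPM against 3232 to 6614 CPM elsewhere. It also had the highest share of ribosomal and 7SL RNA, 19.9% against 14.1% to 18.3% of counts. Summed over 10 heart muscle genes, hypoplastic 1 held 256 CPM and hypoplastic 2 held 123 CPM, against 4.43 to 19.6 CPM in the other libraries. Basal and squamous epithelial genes, of which 6 of 7 were in the table, summed to 38.2 CPM in hypoplastic 1 and to 1.02 to 2.84 CPM elsewhere. Neutrophil genes (8 of 8 in the table) summed to 6.93 to 13.1 CPM in control, 54.4 to 96.0 CPM in hypoplastic and 19.0 to 80.9 CPM in treated lungs. No gene of these lists was at 0 in every library, and their part in the values below was not tested. Levels of Xist, Ddx3y and Eif2s3y gave 2 male lungs among the controls and 1 male lung in each other group.

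The first comparison asks how these genes stood in hypoplastic lungs. By mean, 8 of the 10 were lower in hypoplastic than in control lungs, led by Ager and Hopx, and Aqp5 and Rtkn2 differed least. In edgeR's quasi-likelihood test none of the 10 passed an adjusted p of 0.05, beside 1 gene of 12966 (0.00771%) that did. At an unadjusted p under 0.05 there were 3 of 10, Ager, Hopx and Cldn18, beside 12.4% of all genes tested. That count was 1 without control 2, without hypoplastic 1 or with sex as a covariate, and 5 without control 1. The median log2 change of the 10 genes was -0.42, beside 0.01 over all genes, and 48.1% of all genes were lower. Without control 2 the median was -0.25, and without control 1 it was -0.56. The count of lower genes was 8 to 10 in every alternative fit that was run.

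Ager encodes RAGE, a receptor of the immunoglobulin family that is held at the basal membrane of type I cells. It stood at 42.2, 104 and 62.0 CPM in control 1, 2 and 3, at 23.1, 48.7 and 32.9 CPM in hypoplastic 1, 2 and 3, and at 42.2, 34.3 and 71.8 CPM in treated 1, 2 and 3. The highest hypoplastic lung lay above the lowest control, so the groups overlapped. The means were 69.3 ± 31.4, 34.9 ± 12.9 and 49.5 ± 19.8 CPM (SD, n = 3 each). The log2 change in hypoplastic against control lungs was -0.99 with an SE of 0.39 (95% interval -1.86 to -0.12), and the edgeR adjusted p was 0.369. Control 2 carried much of that difference, and without it the log2 change was -0.58.

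Hopx, a small homeodomain protein that does not bind DNA and an early marker of cells taking the type I course, had nearly the same pattern of libraries. Control lungs held 64.7, 164 and 100.2 CPM, hypoplastic lungs 37.2, 80.6 and 59.3 CPM, and treated lungs 55.9, 48.4 and 87.4 CPM. Control 2 was again the highest and hypoplastic 1 the lowest of the 9, and control 1 lay below hypoplastic 2. The log2 change in hypoplastic lungs was -0.89 with an SE of 0.37 (95% interval -1.73 to -0.05; edgeR adjusted p 0.386), and -0.48 without control 2.

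Cldn18, a claudin of the tight junctions between alveolar cells, was the one gene of the 10 whose control and hypoplastic libraries did not overlap, beside 9.05% of all genes that were lower in this way. It stood at 467, 588 and 490.4 CPM in control lungs and at 390.0, 369 and 379 CPM in hypoplastic lungs, with means of 515 ± 64.3 and 379 ± 10.4 CPM (SD, n = 3 each). The hypoplastic lungs lay close together, with a coefficient of variation of 2.73%. The log2 change was -0.44 with an SE of 0.12 (95% interval -0.70 to -0.18), and the edgeR adjusted p was 0.317 although the unadjusted p was 0.00404, the 149th smallest of all genes. DESeq2, which called 202 genes (1.56%) in this comparison, gave a log2 change of -0.44 and an adjusted p of 0.0384. Over all alternatives the adjusted p ran from 0.0384 to 0.762. With each library left out in turn the log2 change stayed between -0.50 and -0.34. Of 7 other claudins tested, 4 were lower and 3 higher, from -0.25 to 0.15, and none had an unadjusted p under 0.05. Cldn3 alone among those had libraries that did not overlap, with a log2 change of -0.23.

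**Figure D1:**
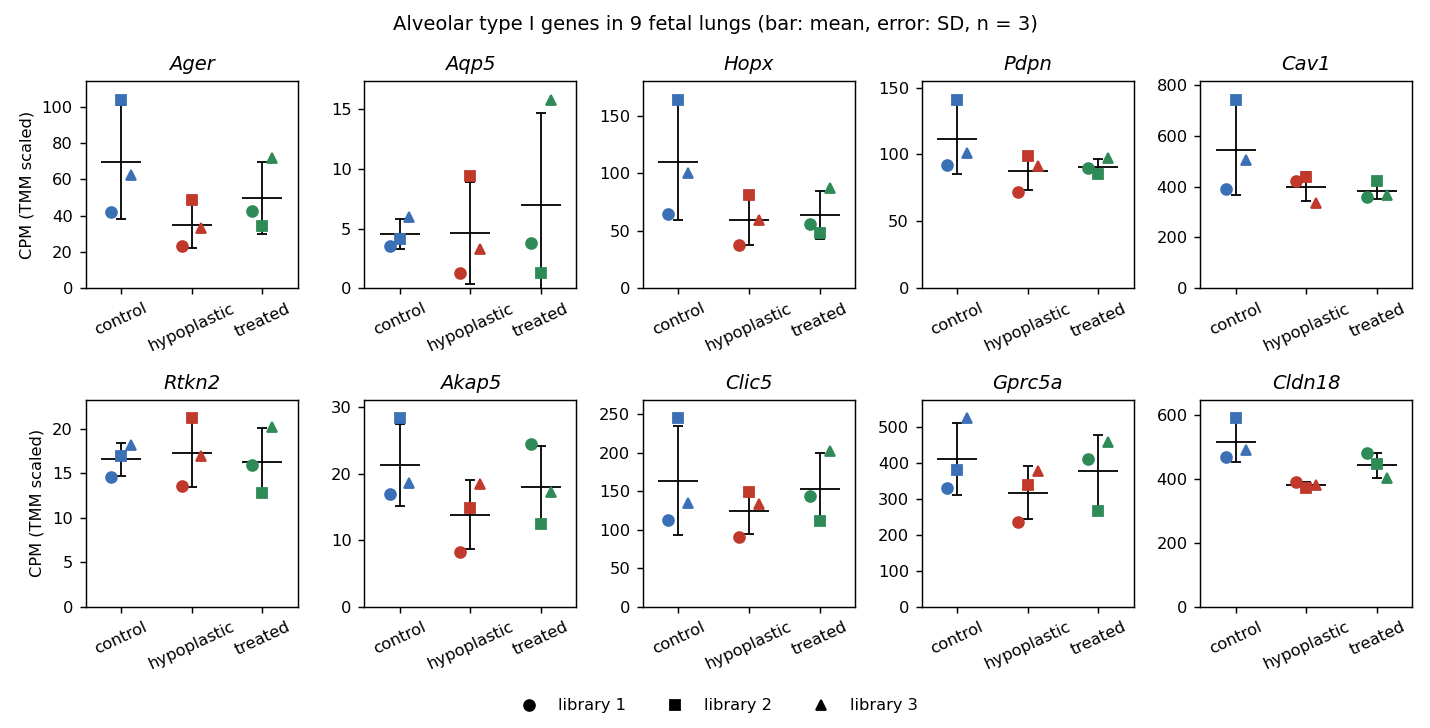
Level of each of the 10 genes in the 9 lungs, in CPM on a linear axis from 0 that differs between panels. Points are libraries (circle 1, square 2, triangle 3 of each group), bars are means and error bars SD (n = 3), with the lower arm of Aqp5 in treated lungs cut at 0. Control 2 is the highest point in 7 of the 10 panels and hypoplastic 1 the lowest in 7.

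Pdpn, a mucin-type membrane glycoprotein of the apical surface, stood at 92.0, 141 and 101 CPM in control, 71.9, 98.9 and 91.1 CPM in hypoplastic and 89.6, 85.6 and 97.5 CPM in treated lungs. Only control 2 and control 3 lay above every hypoplastic lung. The log2 change in hypoplastic lungs was -0.35 (SE 0.17, edgeR adjusted p 0.435), and it was -0.15 without control 2 and -0.23 without hypoplastic 1. Among other cells with Pdpn, 5 lymphatic endothelial genes summed to 84.1 to 104 CPM in control, 76.1 to 157 CPM in hypoplastic and 83.9 to 98.1 CPM in treated lungs, highest in hypoplastic 2. Of these, 3 had an unadjusted p under 0.05, all higher in hypoplastic than in control lungs (beside 12.4% of all genes), with a list median of 1.05 that was 0.50 without hypoplastic 2. In treated against hypoplastic lungs that median was -0.79, and -0.34 without hypoplastic 2. Mesothelial genes (4 of 6 in the table) summed to 218 to 321 CPM in control, 181 to 270.4 CPM in hypoplastic and 187 to 249 CPM in treated lungs. Most of that sum was Krt19, with a mean of 230 CPM in control lungs. In hypoplastic against control lungs 2 of the 4 were higher and 2 lower, from -1.01 (Upk1b) to 1.01 (Msln). Msln stood at 24.7, 58.6 and 18.7 CPM in hypoplastic lungs, against a control mean of 16.9 CPM. The part of the lymphatic and mesothelial cells in the Pdpn values was not tested.

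Cav1, the scaffold protein of caveolae, stood at 390.2, 742 and 505 CPM in control, 424, 440 and 336 CPM in hypoplastic and 360.1, 422 and 369 CPM in treated lungs. Control 1 lay within the hypoplastic range, and the log2 change of -0.45 (SE 0.21, edgeR adjusted p 0.426) was -0.16 without control 2.

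Of 6 other caveola genes, 4 were lower and 2 higher in hypoplastic lungs, with a median log2 change of -0.26 and a range from -0.58 to 0.86. The unadjusted p was under 0.05 for 4 of them, 3 lower and 1 higher, beside 12.4% of all genes, and no adjusted p passed 0.05 in edgeR or DESeq2. That count was 0 without control 2 and 2 without hypoplastic 2 or without hypoplastic 3. Cav2, the partner of Cav1 in the caveolar coat, had a log2 change of -0.58, which was -0.23 without control 2. Cavin1, needed for caveolae to form, had libraries that did not overlap, at 326, 360.3 and 342 CPM in control and 304.2, 304.3 and 265 CPM in hypoplastic lungs. Its log2 change was -0.24 (SE 0.09, edgeR adjusted p 0.372). Blood endothelium also has caveolae, and its 9 marker genes had a median log2 change of -0.07 with none at an unadjusted p under 0.05 (-0.16 without control 2 or without hypoplastic 1, and -0.02 without hypoplastic 3).

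Akap5, an anchoring protein that holds protein kinase A at the membrane, stood at 16.9, 28.3 and 18.6 CPM in control and 8.16, 14.8 and 18.5 CPM in hypoplastic lungs. Hypoplastic 3 lay just below control 3 and above control 1. The log2 change was -0.62 (SE 0.34, edgeR adjusted p 0.478), -0.36 without control 2 and -0.35 without hypoplastic 1. Gprc5a, an orphan receptor known as a retinoic acid responsive gene of lung epithelium, stood at 332, 381 and 525 CPM in control and 235, 338 and 379 CPM in hypoplastic lungs. Its highest library was control 3, and its log2 change of -0.38 (SE 0.25, edgeR adjusted p 0.555) was -0.17 without that library and -0.20 without hypoplastic 1.

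Clic5, a chloride intracellular channel protein tied to the actin cytoskeleton, stood at 112, 244 and 135 CPM in control and 90.6, 148 and 133 CPM in hypoplastic lungs. Both groups overlapped throughout apart from control 2 at the top and hypoplastic 1 at the bottom. The log2 change of -0.40 (SE 0.32, edgeR adjusted p 0.633) rested on control 2, and without that library it was 0.01. Without hypoplastic 1 it was -0.22. Among 5 other CLIC genes, 4 were higher and 1 lower in hypoplastic lungs. The unadjusted p was under 0.05 for 3 of them, 2 higher and 1 lower, beside 12.4% of all genes. Without hypoplastic 2 that count was 1. Clic2 and Clic4 were higher without overlap of libraries, beside 996 of 12966 genes, and Clic3 was lower without overlap, beside 9.05%. The lower one was Clic3, at 76.0, 135 and 91.0 CPM in control and 61.4, 49.9 and 46.0 CPM in hypoplastic lungs without overlap (log2 change -0.94, SE 0.21). Its adjusted p was 0.317 in edgeR and 0.00597 in DESeq2, which called 1.56% of all genes in this comparison. Clic2 had a log2 change of 2.43 (adjusted p 0.325 in edgeR and 0.0404 in DESeq2) from low levels, at 1.06, 0.856 and 0.963 CPM in control and 2.76, 11.3 and 1.45 CPM in hypoplastic lungs. Hypoplastic 2 carried that value, which was 1.14 without it. Clic4 stood at 46.1, 37.5 and 44.5 CPM in control and 48.0, 62.9 and 48.8 CPM in hypoplastic lungs (log2 change 0.32, SE 0.14, edgeR adjusted p 0.396).

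Rtkn2, an intracellular signalling protein, had a 1.66-fold range over all 9 libraries, the smallest of the 10 after that of Cldn18 (1.59-fold). It stood at 14.6, 17.0 and 18.2 CPM in control, 13.6, 21.2 and 16.9 CPM in hypoplastic and 16.0, 12.8 and 20.2 CPM in treated lungs. The 95% interval of the hypoplastic difference ran from -0.41 to 0.52 on the log2 scale.

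Aqp5, the apical water channel, was the most variable, with a 12.8-fold range. It stood at 3.52, 4.12 and 5.94 CPM in control, 1.24, 9.44 and 3.29 CPM in hypoplastic and 3.82, 1.28 and 15.8 CPM in treated lungs. The libraries rested on 81 to 1076 estimated counts, and the coefficient of variation was 27.8% in control, 91.7% in hypoplastic and 111% in treated lungs. The log2 change in hypoplastic lungs was 0.04 with a 95% interval from -1.90 to 1.97, an interval that holds large differences in both directions. Its sign turned with the fit, and without hypoplastic 2 the log2 change was -1.02. The 3 other aquaporins tested ranged from -0.67 to 0.34 with none at an unadjusted p under 0.05.

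The second comparison asks whether lungs given AFSC-EVs differed from untreated hypoplastic lungs, and it shares the hypoplastic libraries with the first. By mean, 8 of the 10 genes were higher in treated lungs, beside 48.1% of all genes, and Cav1 and Rtkn2 were lower. In edgeR none of the 10 passed an adjusted p of 0.05, nor did any other gene (0%), and DESeq2 called 17 genes (0.131%), none of the 10 among them. None of the 10 had an unadjusted p under 0.05, beside 721 genes, or 5.56%. The median log2 change of the 10 was 0.24, beside -0.01 over all genes. It depended on single libraries, and was 0.02 without treated 3, 0.10 without hypoplastic 1 and 0.37 without treated 2.

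Cldn18 was the one gene of the 10 whose treated and hypoplastic libraries did not overlap, beside 5.07% of all genes that were higher in this way. Treated lungs stood at 479, 446 and 401 CPM, all above the 3 hypoplastic lungs, and treated 1 also lay within the control range. The log2 change was 0.22 with an SE of 0.12 (95% interval -0.04 to 0.48; edgeR adjusted p 0.901). Ager had a log2 change of 0.50 with an SE of 0.39 (95% interval -0.36 to 1.37; edgeR adjusted p 0.940), and 0.13 without treated 3. Hopx stood at 0.11 (95% interval -0.72 to 0.95), and its sign turned without treated 3 or without hypoplastic 1. Treated 2 lay below hypoplastic 2 and hypoplastic 3 for Aqp5, Hopx, Pdpn, Rtkn2, Akap5, Clic5 and Gprc5a.

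Akap5 in treated lungs stood at 24.5, 12.4 and 17.2 CPM, so treated 1 lay above every hypoplastic lung and treated 2 below hypoplastic 2 and 3 (log2 change 0.38, SE 0.34). Clic5 stood at 144, 111 and 202 CPM, with treated 3 the highest after control 2 (log2 change 0.30, SE 0.32). Gprc5a stood at 411, 267 and 460 CPM (log2 change 0.26, SE 0.25). The 3 genes each overlapped the hypoplastic range. Pdpn and Cav1 had log2 changes of 0.06 and -0.06, with 95% intervals from -0.33 to 0.44 and from -0.54 to 0.42. Rtkn2 had -0.08, with an interval from -0.55 to 0.38. For Aqp5 the log2 change of 0.57 came with an interval from -1.34 to 2.48, and it was -0.87 without treated 3.

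The third comparison sets treated against control lungs, and it shares libraries with both others. By mean, 9 of the 10 genes were lower in treated lungs, beside 49.4% of all genes, and Aqp5 was higher. EdgeR called none of the 10 and no gene at all (0%), and DESeq2 called 14 genes (0.108%), none of the 10 among them. Cav1 alone of the 10 had an unadjusted p under 0.05 (edgeR adjusted p 0.998), beside 541 genes, or 4.17%. Its log2 change was -0.51 (SE 0.21), and -0.22 without control 2, when its unadjusted p was no longer under 0.05. No gene of the 10 had treated libraries clear of the controls, beside 5.02% of all genes that were lower in this way. Hopx had a log2 change of -0.78 (SE 0.37, 95% interval -1.61 to 0.06), and Ager -0.49 (SE 0.38, 95% interval -1.35 to 0.38). Cldn18 had -0.22 (SE 0.12), as far below control as it was above the hypoplastic lungs. The median log2 change of the 10 was -0.23, beside 0.00 over all genes, and it was -0.08 without control 2, -0.13 without treated 2 and -0.35 without treated 3.

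**Figure D2:**
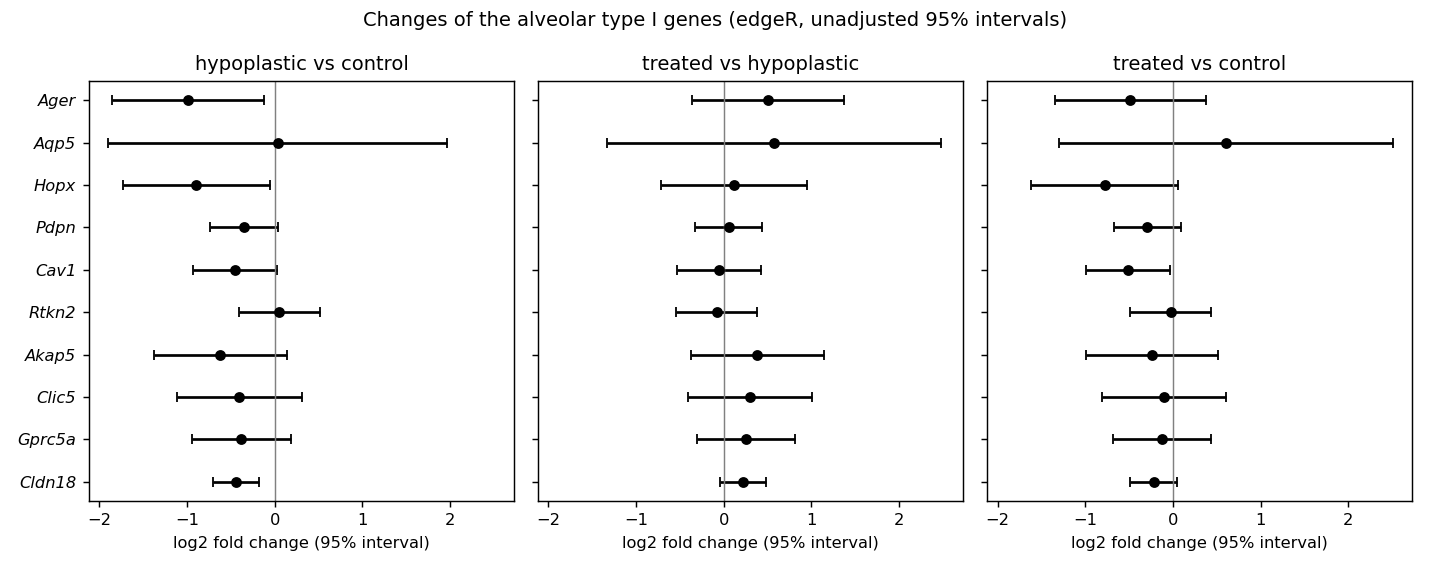
Log2 fold change of each of the 10 genes in the 3 comparisons, with unadjusted 95% intervals from edgeR. In hypoplastic against control lungs the intervals of Ager, Hopx and Cldn18 lie below 0, in treated against control that of Cav1 does, and in treated against hypoplastic lungs every interval includes 0.

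Set in order of the group means, 7 of the 10 genes had control highest, treated next and hypoplastic lowest: Ager, Hopx, Pdpn, Akap5, Clic5, Gprc5a and Cldn18. Of those, Cldn18 alone had hypoplastic libraries clear of both other groups. The share of all genes with this order, or with this separation, was not counted. Low values in the hypoplastic libraries enter both the comparison with control and that with treated lungs, so these are not independent. Cav1 had its lowest mean in treated lungs, Rtkn2 had its highest in hypoplastic lungs, and Aqp5 had its lowest in control lungs.

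For many of these genes the same lungs stood high or low within their group. Control 2 was the highest of the 9 libraries for 7 genes, and control 3 was among the 3 highest for 9. Hypoplastic 1, which held the most heart muscle and squamous transcripts, was the lowest for 7 genes and among the 3 lowest for 9. Hypoplastic 2, which also held heart muscle transcripts, was among the 3 highest for 5 genes and the 3 lowest for 2. Treated 2 was among the 3 lowest for 8 genes, and treated 3 among the 3 highest for 6. After each gene was standardised over the 9 libraries, the median of the 10 was -0.21, 1.79 and 0.61 SD in control, -1.45, 0.14 and -0.24 SD in hypoplastic and -0.13, -0.80 and 0.72 SD in treated lungs 1, 2 and 3. Summed CPM of the 10 genes was 1534 to 2413 in control, 1295 to 1569 in hypoplastic and 1441 to 1742 in treated lungs. Cav1, Cldn18 and Gprc5a weigh most in this sum, with control means of 546, 515 and 413 CPM.

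**Figure D3:**
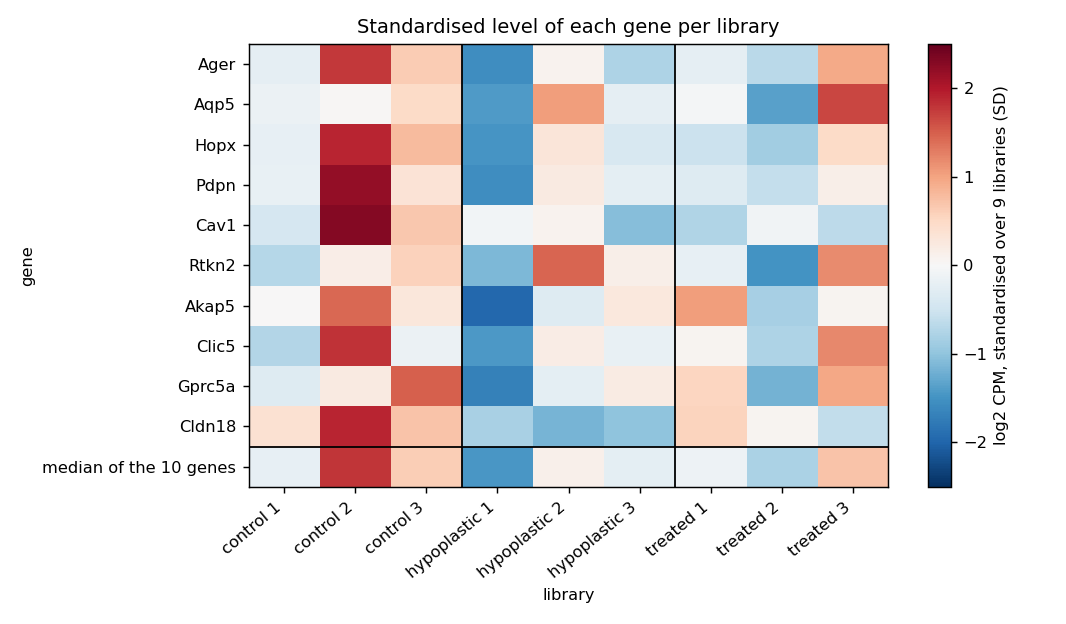
Standardised log2 CPM of each gene in each library (red above, blue below the gene's mean over the 9 lungs, in SD), with the median of the 10 genes in the bottom row. The column of control 2 is red for most genes and that of hypoplastic 1 blue, with medians of 1.79 and -1.45 SD.

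Likeness to that median profile was measured as the mean absolute difference of standardised levels over the 9 libraries. Ager (0.132 SD) was the nearest of all 12966 genes and Hopx (0.153 SD) the 3rd, followed by Pdpn (0.210 SD, 11th) and Clic5 (0.236 SD, 25th), all of which helped to make the profile. Akap5, Aqp5 and Gprc5a lay at 0.471, 0.497 and 0.547 SD, and Rtkn2, Cav1 and Cldn18 lay farthest, at 0.604, 0.637 and 0.711 SD. Among the 8 nearest genes outside the 10 were Ttc22 (0.145 SD), Kmt5b (0.175 SD), Flvcr2 (0.185 SD), Serinc5 (0.194 SD), Rmdn2 (0.195 SD), Nceh1 (0.205 SD) and Ago4 (0.210 SD). Ttc22 stood at 7.42, 19.8 and 10.4 CPM in control, 4.04, 9.31 and 5.76 CPM in hypoplastic and 8.30, 5.31 and 13.2 CPM in treated lungs.

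A longer list of 24 further genes of alveolar type I cells had 22 in the table (Krt7 and Ndnf were not analysed here), and all 22 were tested. In hypoplastic lungs 20 were lower and 2 higher, with a median log2 change of -0.21 and a range from -1.43 to 0.13. EdgeR called none at an adjusted p of 0.05, 8 had an unadjusted p under 0.05, all lower, beside 12.4% of all genes, and 7 were lower without overlap of libraries, beside 9.05% of all genes. DESeq2 called 6 of the 22 in this comparison: Emp2, Sema3a, Col4a3, Col4a4, Lama3 and Itgb6, all lower, beside 202 of all genes tested (1.56%). Without control 2 the edgeR fit had 16 of 22 lower.

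The differences of largest size among the 7 were in Col4a3, Col4a4, Emp2 and Itgb6. Col4a3, a collagen chain of the alveolar basement membrane, stood at 11.8, 31.2 and 17.8 CPM in control and 5.44, 11.3 and 5.86 CPM in hypoplastic lungs (log2 change -1.43, SE 0.38). Its partner chain Col4a4 stood at 10.2, 22.6 and 13.5 CPM in control and 6.36, 8.08 and 5.39 CPM in hypoplastic lungs (log2 change -1.22, SE 0.28). Every control lung lay above every hypoplastic lung for both chains. Itgb6, an integrin subunit that activates latent TGF-beta, stood at 66.4, 110.5 and 64.8 CPM in control, 37.2, 44.7 and 40.9 CPM in hypoplastic and 48.5, 48.2 and 47.3 CPM in treated lungs. Its log2 change in hypoplastic lungs was -0.98 (SE 0.19), with adjusted p-values of 0.317 in edgeR and 0.00167 in DESeq2. The 3 groups of Itgb6 did not overlap, and treated lungs lay between the others (log2 change 0.23 against hypoplastic and -0.75 against control lungs). Emp2, a tetraspan membrane protein of type I cells, stood at 394, 851 and 462 CPM in control and 252, 316 and 266 CPM in hypoplastic lungs (log2 change -1.03, SE 0.28), and the log2 change was -0.62 without control 2.

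In treated against hypoplastic lungs 13 of the 22 were higher and 9 lower, with a median log2 change of 0.08, which was 0.00 without hypoplastic 1, 0.04 without treated 3 and 0.14 without hypoplastic 2. None was called by edgeR or DESeq2, 1 had an unadjusted p under 0.05, beside 5.56% of all genes, and 3 were higher without overlap (Limch1, Itgb6 and Col4a4), beside 5.07% of all genes. Limch1, which activates non-muscle myosin, stood at 67.0, 60.8 and 64.1 CPM in hypoplastic and 75.8, 84.7 and 71.7 CPM in treated lungs (log2 change 0.28, edgeR adjusted p 0.895). In treated against control lungs 20 of the 22 were lower, with a median of -0.32, which was -0.12 without control 2. The unadjusted p was under 0.05 for 4 genes, or 1 without control 2, beside 4.17% of all genes, and 5 were lower without overlap, beside 5.02% of all genes. The differences with the largest size among those were -1.12 for Col4a3, -0.78 for Col4a4, -0.75 for Itgb6 and -0.39 for Lama3, a laminin chain of epithelial basement membranes. Without control 2 the first 3 were -0.67, -0.40 and -0.45.

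Of 11 transcription factors and co-activators of alveolar epithelial differentiation, 10 were tested (Tead4 was not analysed here). In hypoplastic lungs 8 were lower, with a median log2 change of -0.10, none was called by edgeR or DESeq2, and 2 had an unadjusted p under 0.05, beside 12.4% of all genes. Those were Nkx2-1, the master regulator of lung epithelium, and Cebpa, which acts in type II cells. Nkx2-1 stood at 356, 442 and 359 CPM in control, 264, 334 and 300.1 CPM in hypoplastic and 441, 352 and 394 CPM in treated lungs. Its hypoplastic lungs lay below all others (log2 change -0.36 against control, edgeR adjusted p 0.360, and 0.40 for treated against hypoplastic, adjusted p 0.859). Cebpa stood at 73.7, 127 and 82.2 CPM in control, 52.2, 64.4 and 67.0 CPM in hypoplastic and 93.3, 74.5 and 71.7 CPM in treated lungs. Its log2 changes were -0.62 (edgeR adjusted p 0.325), which was -0.35 without control 2, and 0.38 (adjusted p 0.901). With Yap1, 3 of the 10 were lower without overlap in hypoplastic than in control lungs, beside 9.05% of all genes. The same 3 were higher without overlap in treated than in hypoplastic lungs, beside 5.07%. Yap1 stood at 128, 127 and 124 CPM in control, 117.3, 105 and 114 CPM in hypoplastic and 125, 117.6 and 122 CPM in treated lungs (log2 changes -0.17 and 0.11). Without control 3 the median of the regulators in hypoplastic lungs was -0.06 and without hypoplastic 1 it was -0.07, each with 5 lower and 5 higher. Over the 10 regulators the treated against hypoplastic median was 0.10, with 8 higher (0.06 without hypoplastic 2), and the treated against control median was -0.02, with 5 lower and 5 higher.

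Known ligands of RAGE were listed beside Ager. Of 6 tested, 5 were higher in hypoplastic lungs, with a median log2 change of 0.96, which was 1.60 without control 3 and 0.66 without control 2. That median lies between S100a4 (0.49) and S100b (1.44), and S100b was below 1 CPM in every library. Hmgb1 had a log2 change of 0.03 and S100a6 of -0.18. S100a8 and S100a9, which neutrophils carry in abundance and which are also on the neutrophil list, accounted for the cases without overlap. S100a8 stood at 4.49, 4.57 and 2.71 CPM in control, 39.0, 19.8 and 31.1 CPM in hypoplastic and 20.1, 7.82 and 30.1 CPM in treated lungs (log2 change 2.94 for hypoplastic against control, SE 0.47, edgeR adjusted p 0.185). S100a9 had a log2 change of 3.32 (SE 0.54, edgeR adjusted p 0.185).

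Type II genes gave a measure of the neighbouring alveolar cell. All 9 were lower in hypoplastic lungs, with a median log2 change of -0.78, which was -0.49 without control 2. The unadjusted p was under 0.05 for 6, beside 12.4% of all genes, and 5 were lower without overlap, beside 9.05%. None was called by edgeR, and DESeq2 called Sftpc, Sftpb and Slc34a2, beside 1.56% of all genes. All 9 were higher in treated than in hypoplastic lungs, with a median of 0.48, which was 0.30 without treated 1. Of these, 4 had an unadjusted p under 0.05, beside 5.56% of all genes, and none was called by either tool. That count was 0 without treated 1 and 2 without hypoplastic 2 or without hypoplastic 3. The 10 general epithelial genes had medians of -0.21 in hypoplastic against control and 0.11 in treated against hypoplastic lungs. Without hypoplastic 2 these were -0.09 and 0.03, and without hypoplastic 1 the second was 0.20.

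**Figure D4:**
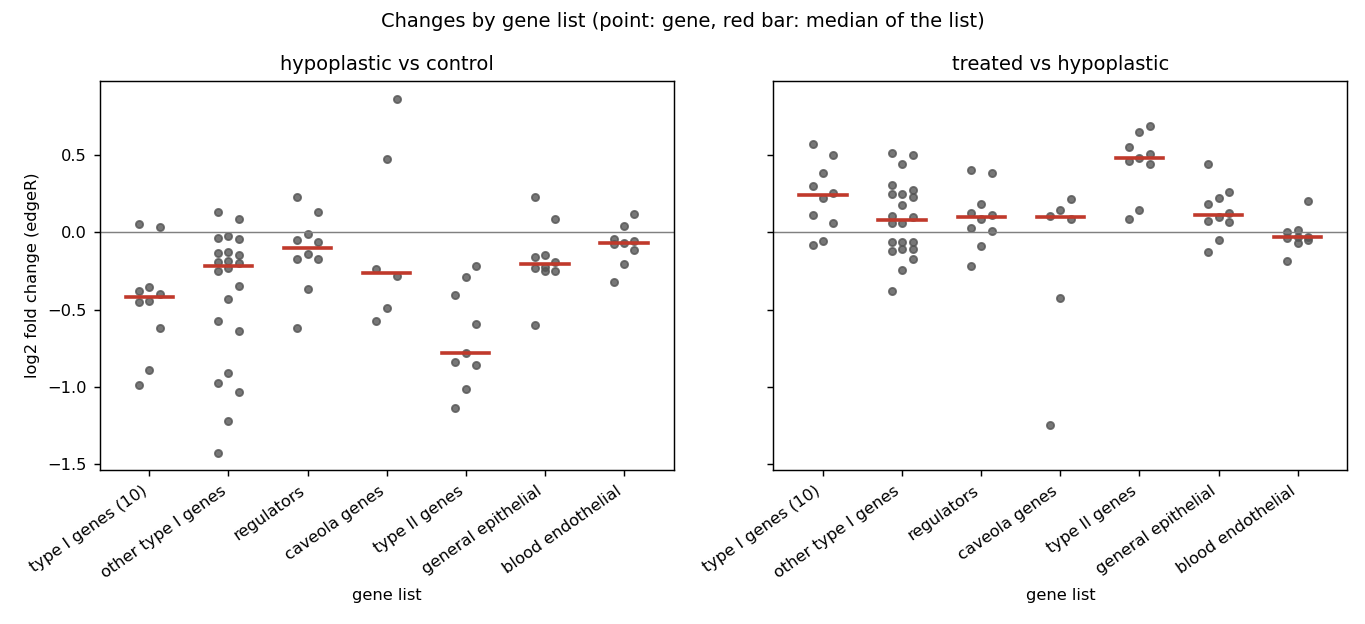
Log2 fold changes of single genes (points) by gene list, with the list's median as a red bar, for hypoplastic against control and treated against hypoplastic lungs. The medians of the 10 type I genes are -0.42 and 0.24 and those of the type II genes -0.78 and 0.48, while the blood endothelial medians lie at -0.07 and -0.03.

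To read the 10 genes against the epithelium of the same lung, the mean log2 CPM of a reference list was subtracted from their median log2 CPM in each library. Against the 10 general epithelial genes the difference was -0.64 ± 0.46 in control, -1.07 ± 0.56 in hypoplastic and -1.10 ± 0.35 in treated lungs (SD, n = 3 each). Hypoplastic lungs differed from control by -0.42 and treated lungs from hypoplastic by -0.03, with overlap in each comparison. The first difference was -0.19 without control 2, -0.13 without hypoplastic 1, -0.68 without hypoplastic 2 and -0.65 without control 1, and the second ranged from -0.32 to 0.23 with each library left out. Taken gene by gene, Cldn18 differed by -0.26 between hypoplastic and control lungs relative to the epithelial genes, against -0.44 in CPM. Its libraries were only 0.000685 log2 units from overlapping on this scale, on which 2.34% of all genes were lower without overlap.

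Against the 9 type II genes the difference was -1.72 ± 0.08 in control, -1.68 ± 0.47 in hypoplastic and -2.01 ± 0.44 in treated lungs. The control lungs lay within -1.79 to -1.63, so control 2, the highest for most of the 10 genes, did not stand apart on this scale. Group differences were 0.04 for hypoplastic against control, -0.33 for treated against hypoplastic and -0.29 for treated against control, all with overlap. With each library left out these ranged from -0.18 (without hypoplastic 2) to 0.29 (without hypoplastic 1), from -0.58 (without treated 3 or hypoplastic 1) to -0.11 (without hypoplastic 2), and from -0.54 (without treated 3) to -0.13 (without treated 1). Relative to type II genes, Rtkn2 was the one gene of the 10 higher without overlap in hypoplastic than in control lungs, beside 54.7% of all genes on this scale. Cav1 and Cldn18 were lower without overlap in treated than in hypoplastic lungs, beside 43.1% of all genes. These counts lie below the shares over all genes. Cav1 also differed by -0.26 between treated and control lungs, beside 1.03% of all genes lower without overlap, but its libraries were 0.00398 log2 units from overlapping and the difference was -0.09 without treated 1.

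**Figure D5:**
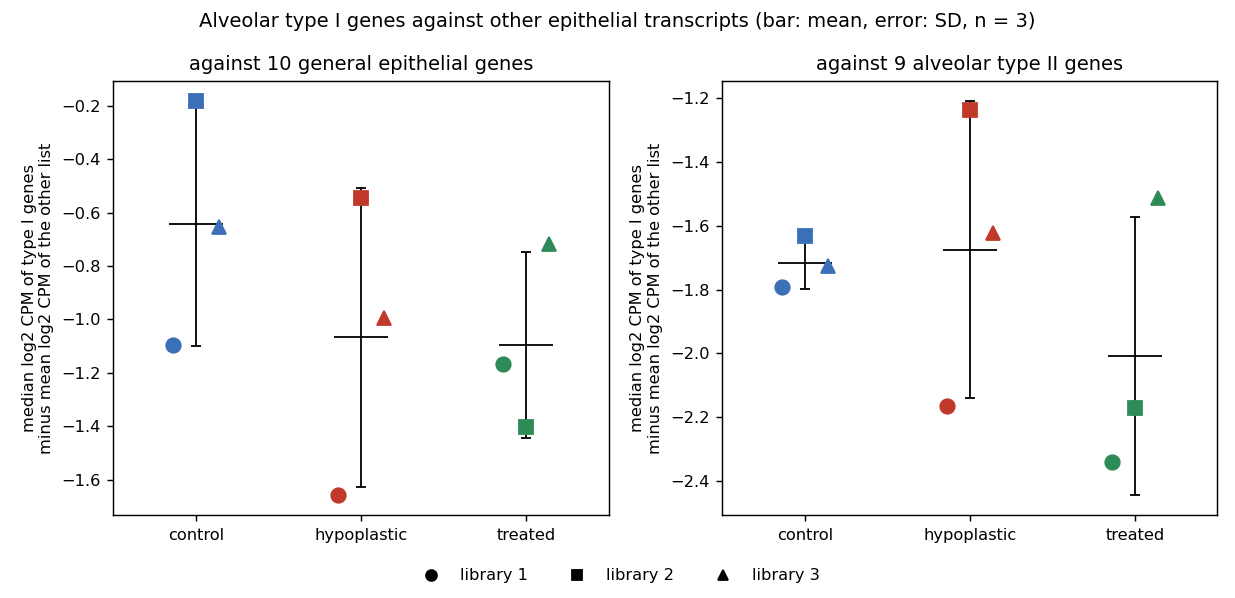
Median log2 CPM of the 10 type I genes minus the mean log2 CPM of 10 general epithelial genes (left) or 9 type II genes (right) in each lung, on axes that do not start at 0. Points are libraries (circle 1, square 2, triangle 3), bars means and error bars SD (n = 3). On the right the control lungs lie between -1.79 and -1.63, within the range of the hypoplastic lungs, from -2.17 to -1.24.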

How the data were processed

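The authors deposited 1 table of estimated counts for 17465 genes by NCBI Gene ID in 9 libraries of rRNA-depleted RNA. Per the submitters' processing notes the build was rn7 and DESeq2 was used. The sources used here do not give the aligner, the annotation, the use of strand or the origin of fractional counts (19.5% of nonzero values were whole, with no tolerance). RefSeq (GRCr8) gave symbols for 99.1% of IDs. In RefSeq, the spans of Hopx, Rtkn2, Clic5 and Cldn18 overlap those of lncRNA genes. Strands and exons were not compared, so whether reads could be shared is not known. Ribosomal and 7SL RNA, in 6 rows, held 14.1% to 19.9% of counts.

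Values were rounded and tested with edgeR 4.0.16 (R 4.3.3; quasi-likelihood, TMM, filterByExpr by group, all 9 libraries in 1 fit with 6 residual degrees of freedom). P-values were adjusted by Benjamini-Hochberg over 12966 genes, and a gene was called under 0.05. Standard errors are the absolute log2 change divided by the square root of F, and 95% intervals are unadjusted. Standardised levels used log2 CPM with a prior count of 2. The common biological coefficient of variation was 0.253. The fit was checked on simulated data.

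The 10 genes and the lists were chosen with earlier results of these data known. Named were the 10 genes, any called list gene, per comparison up to 4 further type I genes and up to 2 of each other list with the largest change among those at a mean of 1 CPM or more without overlap of libraries, and the 8 genes nearest the median profile, of which 1 is not reported here. Genes that DESeq2 called, counts of 5 or fewer, Cav2, Clic2, Clic4, Yap1, Msln and Krt19 were named after their values were seen. So were the RAGE ligands other than S100a8 and S100a9. Alternatives were RLE and upper-quartile scaling, other filters, DESeq2 1.42.0, limma 3.58.1 voom, a replicate block, sex as a covariate, only the 6 libraries compared, removal of ribosomal rows, and each library left out.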

Additional observations from a re-analysis of the deposited data

How the results depend on the processing

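Across 480 alternative values for the 10 genes, 454 kept their sign and side of the threshold, 25 turned sign and 1, Cldn18 in hypoplastic against control under DESeq2, passed the threshold. DESeq2 called 202 genes in the first comparison (hypoplastic and control), 17 in the second (treated and hypoplastic) and 14 in the third (treated and control), where edgeR called 1, 0 and 0. In the first comparison edgeR called 4 genes with only the 6 libraries compared. With each library left out the calls ran from 0 to 45, 0 to 44 and 0 to 1, and the medians of the 10 genes from -0.56 to -0.25, 0.02 to 0.37 and -0.35 to -0.08. In the first, the number of genes whose unadjusted p was under 0.05 was 853 without control 2 and 1054 with sex as a covariate. The cause was not tested.

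Signs that turned with a library left out are given as ranges. In hypoplastic against control these were Aqp5 (-1.02 to 0.49), Rtkn2 (-0.12 to 0.20) and Clic5 (-0.606 to 0.00615). In treated against hypoplastic they were Hopx (-0.18 to 0.41), Pdpn (-0.0632 to 0.158), Cav1 (-0.168 to 0.0167), Rtkn2 (-0.26 to 0.10) and Aqp5 (-0.87 to 1.63). In treated against control they were Akap5 (-0.524 to 0.0211), Clic5 (-0.36 to 0.31), Rtkn2 (-0.21 to 0.12), Gprc5a (-0.283 to 0.0901) and Aqp5 (-0.84 to 1.11). Under limma voom Aqp5 was -0.43 in hypoplastic and -0.16 in treated lungs against control. Clic5 in treated against control was 0.0169 with sex as a covariate. For the other lists, leaving out libraries and DESeq2 were added after seeing the data, as was leaving out libraries for the differences from epithelial and type II genes.

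The titles number the libraries 1 to 3 in each group. Deviations from the group mean correlated at -0.28 to 0.23 between same-numbered libraries of different groups. Between differently numbered ones the range was -0.44 to 0.39. The numbers therefore do not show a pairing, and whether lungs shared a dam or litter cannot be judged from this. With a replicate block the first comparison had 2 called genes, and Aqp5 stood at -0.0514 there. Aqp5 rested on as few as 81 counts in its lowest library. Its coefficient of variation was 91.7% in hypoplastic and 111% in treated lungs. The part of sequencing depth in that spread was not tested.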
